A study of Drosophila melanogaster with 11 samples.

Results

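Odorant-binding protein genes were examined in the larval fat body of *Drosophila melanogaster*. The members were all genes of the deposited count table whose FlyBase identifier maps to a symbol that starts with Obp and continues with a number. The rule gave 51 of the 13931 genes in the table, which is every gene with such a symbol in the annotation used. It leaves out lush, an odorant-binding protein that carries another symbol.

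The fat body of 5 isofemale strains, MU10, MU12, MU14, MU17 and MU26, was sequenced. Each strain descends from 1 wild-caught female of a German population (Munich), and the labels name no transgene and no treatment. Per the study's methods, the larvae were reared on dyed medium. All libraries came from female larvae of the late wandering stage at the end of the third instar, staged at 25 °C by gut colour, and each library pooled the dissected fat bodies of several larvae. There were 3 replicate libraries of MU14 and 2 of each other strain, 11 in all, so that differences between strains are differences between 5 single isofemale strains.

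Odorant-binding proteins are small secreted proteins that hold hydrophobic molecules in a pocket closed by disulphide bridges. They were first known from the lymph that bathes the olfactory neurons of the antenna, where they are among the most abundant proteins. Many family members are also made outside the sense organs, in gut, glia, reproductive glands and fat body, and the fat body is the organ that secretes most proteins of the larval haemolymph.

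Total counts per library ran from 34631482 to 49582725, with a median of 38321327. The 8 fat body markers (larval serum proteins, fat body proteins and lipoproteins) together held 298651 to 453816 CPM (counts scaled to a library size of 1e6) per library, with MU26 the highest in both replicates. Summed markers of other cell types were lower. The highest sum was that of 5 neuron genes, 472 to 621 CPM, among which Syt1 had a mean of 9.17 in log2 CPM. The sums were 39.0 to 174 CPM for 7 haemocyte genes, 3.68 to 146 CPM for 7 salivary gland genes, and 0.412 to 4.85 CPM for 7 midgut genes. No other list passed 83.5 CPM, the highest sum of 4 Malpighian tubule genes. The 5 chemosensory neuron markers held 0 to 1.36 CPM, and of them the co-receptor genes Orco, Ir8a and Ir76b had at most 5 counts in any library. The co-receptor gene Ir25a, the only tested gene of this list, differed across strains and is described below. Its fitted log2 range was 8.44. Neither library of MU26 had a count of Ir25a, so that range depends on a fit at 0 counts and is not a measured difference. Haemocyte markers were lowest in MU26, and salivary gland markers were highest in replicate 2 of MU17.

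A few members held nearly all of the family's counts. In the 11 libraries the 51 genes together took 1.62% to 2.59% of all counts. Obp99b alone, a gene known from the fat body of the adult head, where its expression differs between the sexes, took 1.43% to 2.38% of all counts and 88.6% to 93.5% of the family's. Obp99c, its neighbour on the same chromosome arm, took 5.35% to 9.04% of the family's counts. The remaining 49 genes shared the rest, and only 20 to 32 of the 51 had any count in a given library.

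Levels of different genes were compared per kb of the deposited gene length. On that scale Obp99b stood at a mean of 33972 CPM per kb, rank 2 of all genes in the table behind the storage protein receptor gene Fbp1. Without the division by length it was at rank 4, at 19908 CPM, behind Fbp1, Lsp2 and Fbp2. Obp99c followed with 2515 CPM per kb (rank 21), Obp83ef with 241 (rank 294), Obp99a with 102 (rank 537), Obp83cd with 32.7 (rank 1314) and Obp49a with 28.1 (rank 1473). The other tested members were low, with 5.70 CPM per kb for Obp56d, 1.76 for Obp44a and 1.01 for Obp83g.

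**Figure D1:**
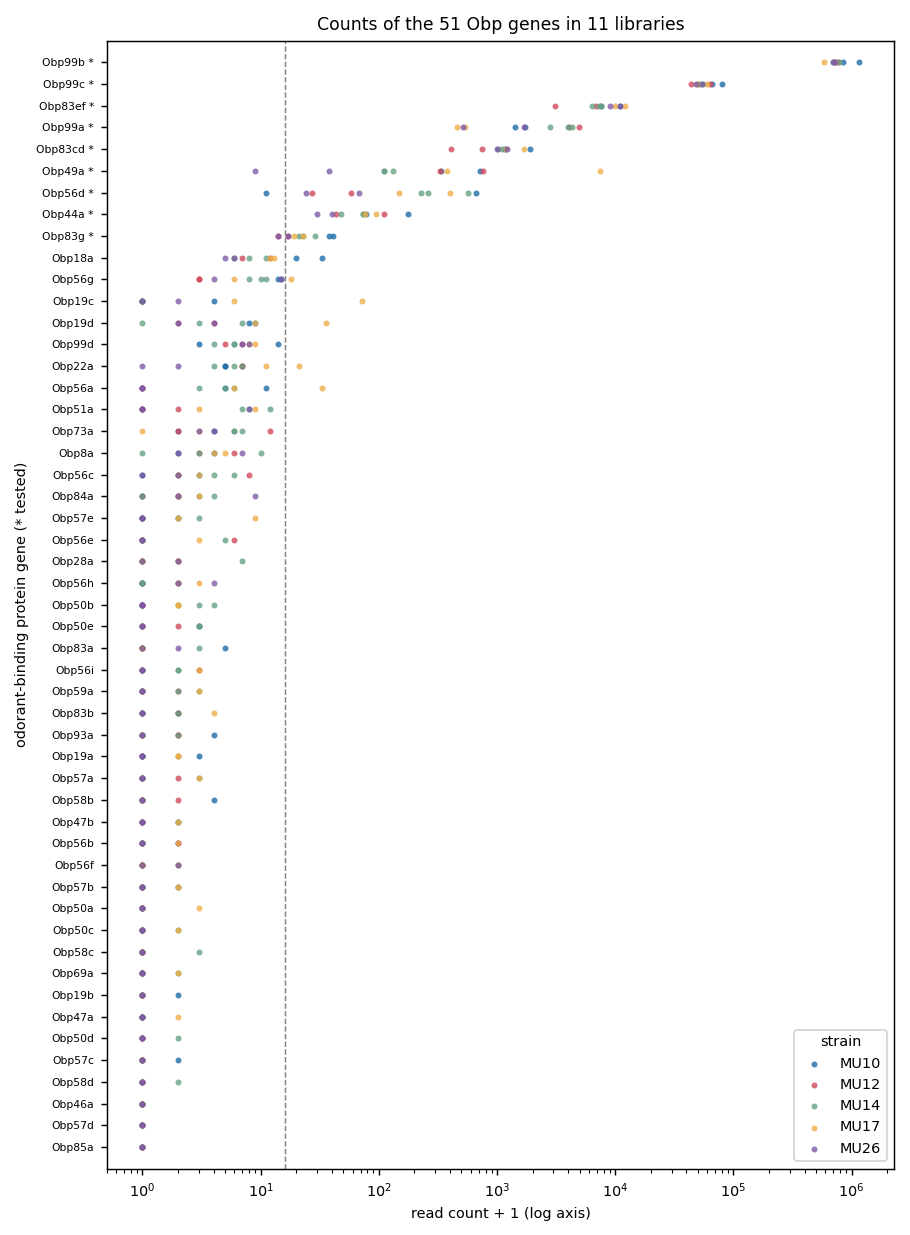
Read counts of the 51 odorant-binding protein genes (rows, ordered by total count) in the 11 libraries, plotted as count + 1 on a log axis, with 1 point per library coloured by strain. The dashed line stands at 15 counts, and asterisks mark the 9 genes whose mean over the libraries reached 15 counts, from Obp99b at the top to Obp83g.

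Of the 51 members, 9 reached the mean of 15 counts per library required for a test and 42 did not. Among the 42, 3 had no count in any library (Obp46a, Obp57d and Obp85a), and 28 had at most 10 counts over all 11 libraries. A count of 0 allows up to 0.0636 to 0.104 CPM, depending on the library (3 counts of the TMM-scaled library size, counting error only). The member just inside the filter was Obp83g, with 13 to 40 counts per library, and the member just outside was Obp18a, with 4 to 32 counts and a mean of 11.09.

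The share of tested members was largest on arm 3R. Of the 12 members on chromosome arm 3R 6 were tested, and these 12 genes held 9168755 of the counts. Arm 2R holds 29 members, of which only Obp44a, Obp49a and Obp56d were tested. None of the 6 members on X, the 2 on 2L and the 2 on 3L was tested.

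Some members known from sense organs, chosen here after their values were seen, had few counts in the fat body. Obp83a and Obp83b, abundant in pheromone-sensing sensilla of the antenna, had no more than 4 counts in any library. Obp28a, a main antennal protein, had at most 6 and Obp59a, known for humidity sensing, at most 2. lush, which is needed for the response to a male pheromone, had 0 to 9 counts. Obp57d and Obp57e, known for taste responses, had 0 and at most 8 counts. Other members known from gustatory or taste sensilla had more, since Obp49a reached 7369 counts and Obp19d 35 in a library.

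Several genomic groups held no tested member. All 4 members of Obp19a to Obp19d, all 5 of Obp50a to Obp50e, all 5 of Obp57a to Obp57e and all 3 of Obp58b to Obp58d were untested. In the Obp50 and Obp58 groups no library had over 3 counts of any member. In the group of 9 genes from Obp56a to Obp56i, which spans 171 kb of 2R, only Obp56d was tested. By contrast, all 3 genes of the compact group Obp83cd, Obp83ef and Obp83g and 3 of the 4 genes from Obp99a to Obp99d were tested.

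Neighbouring genes could differ greatly in level. Obp99d lies 1249 bases from Obp99b but had at most 13 counts in a library and a mean of 0.306 CPM per kb. Dup99B, a male accessory peptide gene between them, stood at 0.332 CPM per kb, and ppk30 and ppk19, ion channel genes on either side of Obp99a, stood at 0.0845 and 0.228. Obp83ef was followed at a gap of 636 bases by Obp83g, whose level per kb was 1.01 against 241.

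**Figure D2:**
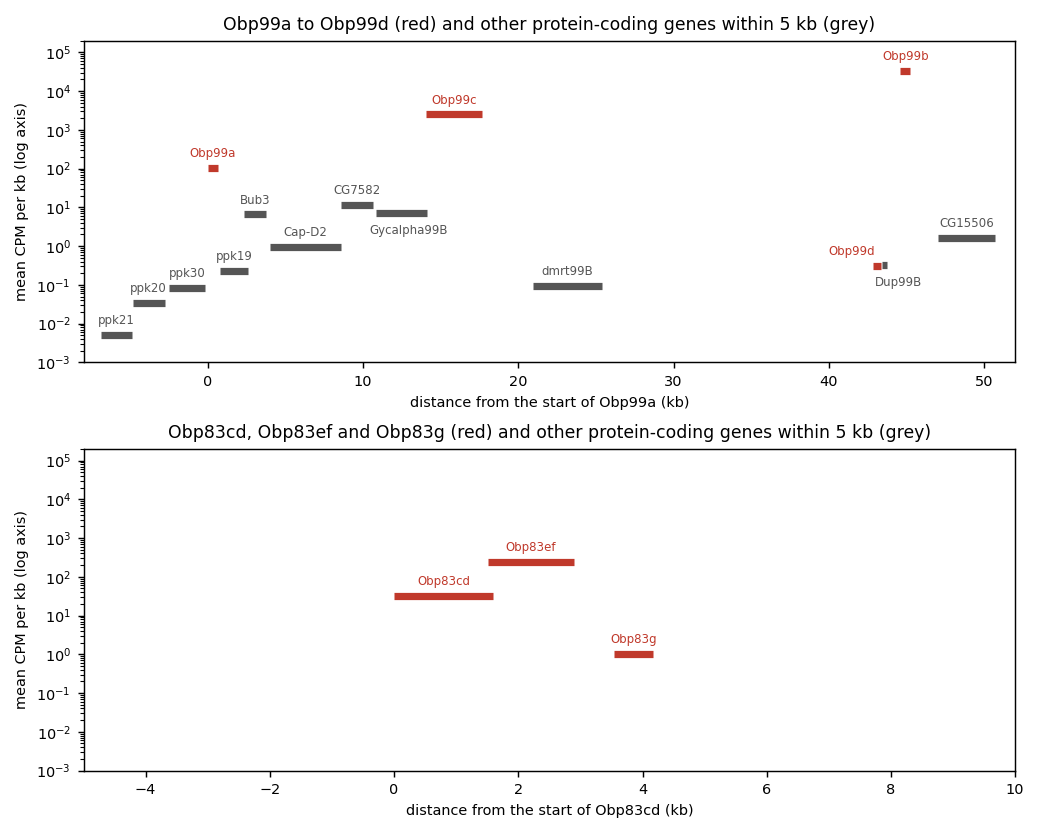
Mean level in CPM per kb of deposited length (log axis) against distance in kb from the start of the leftmost gene, for Obp99a to Obp99d (upper panel) and for Obp83cd, Obp83ef and Obp83g (lower panel), with the protein-coding genes within 5 kb. Each bar spans a gene, and Obp99b at 33972 CPM per kb stands beside Obp99d and Dup99B at 0.306 and 0.332.

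Across the 5 strains, 7 of the 9 tested members differed in level (edgeR quasi-likelihood F test, Benjamini-Hochberg adjusted p under 0.05), where 48.3% of all 8415 tested genes did. These were Obp99a, Obp99b, Obp99c, Obp83cd, Obp83ef, Obp83g and Obp49a, while Obp44a and Obp56d did not pass. In the 10 pairs of strains, members were called in 22 of 90 tests, or 24.4%, where 20.3% of all tests of a gene in a pair were called. Each of the 7 genes was called in at least 1 pair, as were 59.9% of all tested genes. The median difference between the highest and the lowest strain was 1.42 on the log2 scale for the 9 members and 0.79 for all tested genes, and the median spread within strains was 0.30 and 0.21 (SD, log2). In bulk tissue a strain with fewer cells of a type and a strain with less RNA per cell cannot be told apart.

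**Figure D3:**
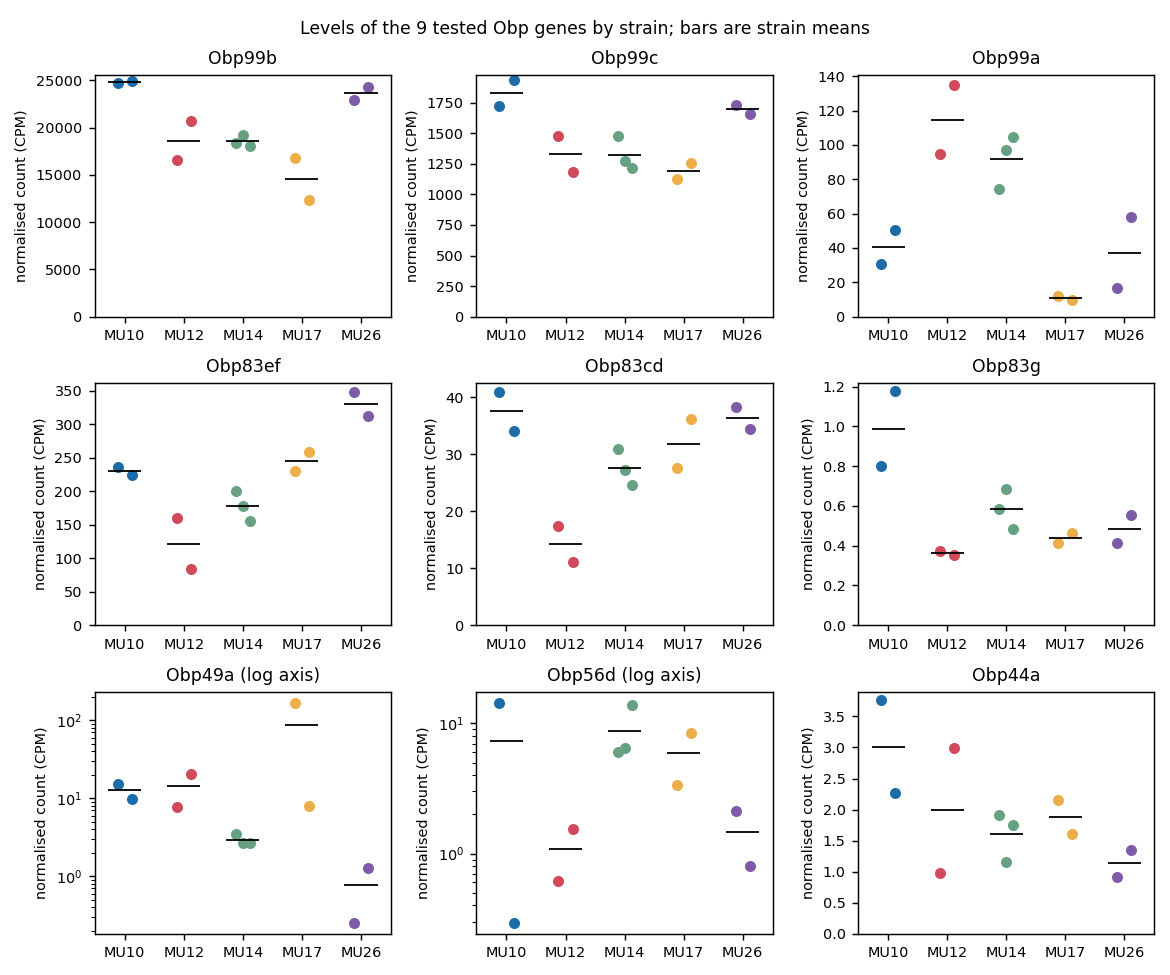
Normalised counts (CPM) of the 9 tested odorant-binding protein genes by strain, with 1 point per library and a bar at each strain mean. Axes start at 0 except for Obp49a and Obp56d, which have log axes; Obp99a in MU17 and Obp83cd in MU12 lie below all libraries of the other strains, and the replicates of MU17 are far apart for Obp49a.

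The Obp99 genes belong to a subfamily that lacks 1 of the conserved disulphide bridges (the Minus-C proteins). Obp99b (FBgn0039685) lies on 3R at 29716254 to 29716896 of the release 6 assembly, on the minus strand. It had 24737 and 24982 CPM in the MU10 libraries, 16588 and 20648 in those of MU12, 18368, 19252 and 18085 in the 3 of MU14, 16742 and 12330 in those of MU17 and 22968 and 24286 in those of MU26. Both libraries of MU10 and of MU26 lay above all those of the other strains, and MU17 reached the lowest value but overlapped with MU12. The gene differed across strains (adjusted p = 0.017), and MU10 exceeded MU17 1.71-fold, with a log2 difference of 0.77 ± 0.15 (SE), a 95% interval of 0.42 to 1.13 and an adjusted p of 0.011. MU26 also exceeded MU17, by 0.70 on the log2 scale, and no other pair was called; this call was lost without MU17 replicate 2 (0.064) or MU26 replicate 2 (0.074). The call across strains was lost without MU10 replicate 1 (adjusted p = 0.056) or MU10 replicate 2 (0.050), and the difference between MU10 and MU17 was not called without either of these (0.060 and 0.058) or without MU17 replicate 2 (0.051).

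Obp99c (FBgn0039682) lies at 29685736 to 29689311 of 3R, on the minus strand. It had 1720 and 1938 CPM in the MU10 libraries, 1478 and 1182 in those of MU12, 1473, 1272 and 1211 in the 3 of MU14, 1122 and 1258 in those of MU17 and 1731 and 1660 in those of MU26. As for Obp99b, both libraries of MU10 and of MU26 were above all the others, while MU12, MU14 and MU17 overlapped. Its range among strains was the narrowest of the 9, wider than that of only 38.8% of tested genes. The adjusted p across strains was 0.024, and MU10 exceeded MU17 1.54-fold (log2 difference 0.62 ± 0.15 SE, 95% interval 0.29 to 0.96, adjusted p = 0.022). MU10 was also higher than MU14, by 0.47, and MU26 than MU17, by 0.51 on the log2 scale. The call across strains did not hold without MU10 replicate 1 (0.053), MU10 replicate 2 (0.086), MU14 replicate 2 (0.052) or MU17 replicate 1 (0.057), and that of MU10 over MU17 without either replicate of either strain (0.057 to 0.12). MU26 over MU17 was called with 1 library left out only where that library was MU12 replicate 1, MU12 replicate 2 or MU14 replicate 1, and MU10 over MU14 was lost without either replicate of MU10 or MU26 or replicates 2 or 3 of MU14 (0.052 to 0.23). A stretch of 23 bases at one end of Obp99c overlaps Gycalpha99B on the opposite strand.

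The order of the fitted levels, MU10, MU26, MU12, MU14 and MU17, was the same for Obp99b and Obp99c. None of the 4 steps between neighbours in that order was called for either gene, and the ratio of Obp99b to Obp99c ran from 9.80 to 17.5 in the 11 libraries. Both extremes came from libraries whose other replicate lay elsewhere, since MU17 had 14.9 and 9.80 and MU12 had 11.2 and 17.5. The summed fat body markers were at 444906 and 453816 CPM in MU26 and at 337937 and 361449 in MU10. They were at 313103 and 343248 in MU12, at 298651 to 315596 in MU14 and at 303225 and 341970 in MU17. Their part in these differences was not tested.

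Obp99a (FBgn0039678), at 29671657 to 29672334 of 3R on the plus strand, showed another pattern and a wider range. It had 30.8 and 50.3 CPM in the MU10 libraries, 94.8 and 135 in those of MU12, 74.4, 97.1 and 105 in the 3 of MU14, 12.3 and 9.69 in those of MU17 and 16.4 and 58.2 in those of MU26. Both MU17 libraries were below all the others and all libraries of MU12 and MU14 above all the others, while MU10 and MU26 overlapped. The adjusted p across strains was 0.0067, and MU12 exceeded MU17 10.4-fold, by 3.38 ± 0.55 on the log2 scale (SE; 95% interval 2.13 to 4.64; adjusted p = 0.0041).

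Obp99a was lower in MU17 than in each of the other 4 strains, which held for 1.18% of tested genes. The smallest of these differences was that to MU26, 1.76 ± 0.52 on the log2 scale (SE, adjusted p = 0.044). MU12 was further above MU26, by 1.62, and the other 3 steps in the order MU12, MU14, MU10, MU26 were not called. MU17 stood lower in all 4 pairs under every one of 18 alternatives, but all 4 were called under only 6 of them. With 1 library left out the 4 calls were kept only without MU26 replicate 1, and without any other library the largest of the 4 adjusted p-values lay between 0.050 and 0.33. The differences of MU12 and MU14 from MU17 were called without any 1 library, and that between MU12 and MU26 only without MU26 replicate 2.

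The 3 genes Obp83cd, Obp83ef and Obp83g lie within 4.2 kb of 3R. Obp83cd and Obp83ef encode double-domain proteins, in which a pair of odorant-binding domains is joined in 1 chain. All 3 were lowest in MU12. In MU12 against MU10 all 3 were lower, where 9.53% of tested genes were called in that direction and 19.6% in either.

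Obp83ef (FBgn0046876), at 6109642 to 6111034 on the minus strand, was the most abundant of the 3. It had 237 and 223 CPM in the MU10 libraries, 160 and 83.3 in those of MU12, 201, 178 and 155 in the 3 of MU14, 230 and 259 in those of MU17 and 348 and 313 in those of MU26. Both MU26 libraries were above all the others, and MU12 overlapped only with MU14. The adjusted p across strains was 0.016, and MU26 exceeded MU12 2.71-fold, by 1.44 ± 0.27 on the log2 scale (SE; 95% interval 0.83 to 2.05; adjusted p = 0.0057). MU10 was also above MU12, by 0.92 on the log2 scale, MU17 was 2.01-fold above MU12, and MU26 was above MU14 by 0.89. Of these 4 pairs only MU26 and MU12 were called without any 1 library. MU10 and MU12 were called with 1 library left out only where it was MU12 replicate 1; MU17 and MU12 lost the call without MU12 replicate 2 or either replicate of MU17 (0.064 to 0.12), and MU26 and MU14 without any library of these strains or of MU10 (0.050 to 0.14).

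Obp83cd (FBgn0046878), at 6108134 to 6109733 on the plus strand, had 41.0 and 34.0 CPM in the MU10 libraries, 17.5 and 11.1 in those of MU12, 31.0, 27.3 and 24.7 in the 3 of MU14, 27.5 and 36.1 in those of MU17 and 38.3 and 34.5 in those of MU26. Both MU12 libraries were below all the others. The adjusted p across strains was 0.0085, and MU10 exceeded MU12 2.63-fold, by 1.39 ± 0.23 on the log2 scale (SE; 95% interval 0.87 to 1.92; adjusted p = 0.0043). The gene was lower in MU12 than in each of the other 4 strains, which held for 2.15% of tested genes. The step from MU14 down to MU12 was 0.95 ± 0.21 (SE, adjusted p = 0.013), and none of the 3 steps between MU10, MU26, MU17 and MU14 was called. All 4 calls against MU12 were kept under 16 of 18 alternatives, and 3 of the 4 remained without MU12 replicate 2 (largest adjusted p = 0.064) or MU17 replicate 2 (0.056).

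Obp83cd and Obp83ef overlap by 92 bases on opposite strands. The sources used here do not state whether strand was used in counting, so reads from that stretch may have been assigned to either gene or discarded, and the level of Obp83cd, the lower of them, is uncertain to that extent. The ratio of Obp83ef to Obp83cd was not fixed. It was lowest in MU10 and MU14, between 5.77 and 6.57, and higher in MU26 (9.09 and 9.07), MU12 (9.18 and 7.52) and MU17 (8.37 and 7.16). The differences between strains in this ratio were not tested.

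Obp83g (FBgn0046875), at 6111671 to 6112302 on the minus strand, had 13 to 40 counts per library. It had 0.799 and 1.18 CPM in the MU10 libraries, 0.376 and 0.353 in those of MU12, 0.585, 0.687 and 0.486 in the 3 of MU14, 0.413 and 0.466 in those of MU17 and 0.412 and 0.555 in those of MU26. Both MU10 libraries were above, and both MU12 libraries below, all the others. The adjusted p across strains was 0.035, and MU10 exceeded MU12 by 1.42 ± 0.34 and MU17 by 1.15 on the log2 scale (SE; 95% interval of the first 0.66 to 2.19; adjusted p = 0.020). The call across strains was lost without any 1 library other than MU14 replicate 3 or MU26 replicate 2, with adjusted p-values of 0.052 to 0.18. The difference between MU10 and MU12 was not called without MU10 replicate 2 (0.12), MU12 replicate 1 (0.074) or MU12 replicate 2 (0.086), and that between MU10 and MU17 was kept only without MU26 replicate 1 or MU26 replicate 2.

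The 3 tested members on 2R included Obp49a and Obp56d, whose spread within strains, 1.46 and 1.68 (SD, log2), was the largest of the 9. Obp49a (FBgn0050052), at 12690059 to 12690955 on the minus strand, encodes a protein known from gustatory sensilla, where it takes part in the suppression of sweet taste by bitter compounds. It had 15.4 and 9.86 CPM in the MU10 libraries, 7.70 and 20.7 in those of MU12, 3.51, 2.68 and 2.67 in the 3 of MU14, 169 and 8.03 in those of MU17 and 0.253 and 1.28 in those of MU26. MU17 replicate 1, with 7369 counts against 379 in replicate 2, was above all other libraries, and replicate 2 lay among those of MU12 and below both of MU10. Both MU26 libraries, with 8 and 37 counts, were below all the others, and those of MU14 came next.

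Obp49a differed across strains (adjusted p = 0.0098), and MU17 was above MU26 by 6.86 ± 1.45 and above MU14 by 4.90 ± 1.06 on the log2 scale (SE; 95% interval of the first 3.57 to 10.16; adjusted p = 0.012 and 0.016). Its range was wider than that of 98.7% of tested genes. Without MU17 replicate 1 the gene was still called across strains (adjusted p = 0.0084), but its difference between MU17 and MU26 was 3.41 (adjusted p = 0.027). Without the strain MU17 altogether the adjusted p across strains was 0.0057. The difference from MU14 was lost without MU17 replicate 1 (0.20) or any 1 library of MU14 (0.057 to 0.064). The difference from MU26 was not called without MU26 replicate 1 (0.072) or MU26 replicate 2 (0.052), and limma-voom called neither that difference (6.01, adjusted p = 0.19) nor the gene across strains (0.11). In MU26 the summed haemocyte markers were also lowest, at 39.0 and 45.2 CPM against 53.6 to 174 in the other libraries, and in MU17 they were 114 and 93.5; their part in the pattern of Obp49a was not tested.

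Obp56d (FBgn0034470), at 19702924 to 19703915 on the minus strand, belongs to the large Obp56 group. It had 14.4 and 0.294 CPM in the MU10 libraries, 0.611 and 1.55 in those of MU12, 6.01, 6.41 and 13.8 in the 3 of MU14, 3.35 and 8.44 in those of MU17 and 2.12 and 0.798 in those of MU26. MU10 held both the highest and the lowest library, with 668 and 10 counts. The gene did not pass across strains (adjusted p = 0.19), although its range, 3.03 ± 1.27 between MU14 and MU12 (log2, SE; 95% interval 0.14 to 5.92; adjusted p = 0.11), was wider than that of 92.1% of tested genes. It passed without MU10 replicate 1 (adjusted p = 0.017) or MU10 replicate 2 (0.022).

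Obp44a (FBgn0033268), at 8134170 to 8135315 on the minus strand and known for its abundance in glia, had 3.76 and 2.27 CPM in the MU10 libraries, 0.986 and 2.99 in those of MU12, 1.91, 1.15 and 1.75 in the 3 of MU14, 2.15 and 1.61 in those of MU17 and 0.919 and 1.35 in those of MU26. The MU12 libraries lay far apart and overlapped with every other strain, and MU10 lay above MU26. The gene did not pass across strains (adjusted p = 0.22), and its difference between MU10 and MU26 was 1.41 ± 0.52 (log2, SE; 95% interval 0.23 to 2.60; adjusted p = 0.10). That difference was called without MU12 replicate 1 (0.038) or MU12 replicate 2 (0.039). A stretch of 205 bases is shared with Pabp2 on the opposite strand, so some reads of this gene at a mean of 1.90 CPM may belong to Pabp2 at 17.6 CPM. The 5 glial markers summed to 16.7 to 72.5 CPM.

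**Figure D4:**
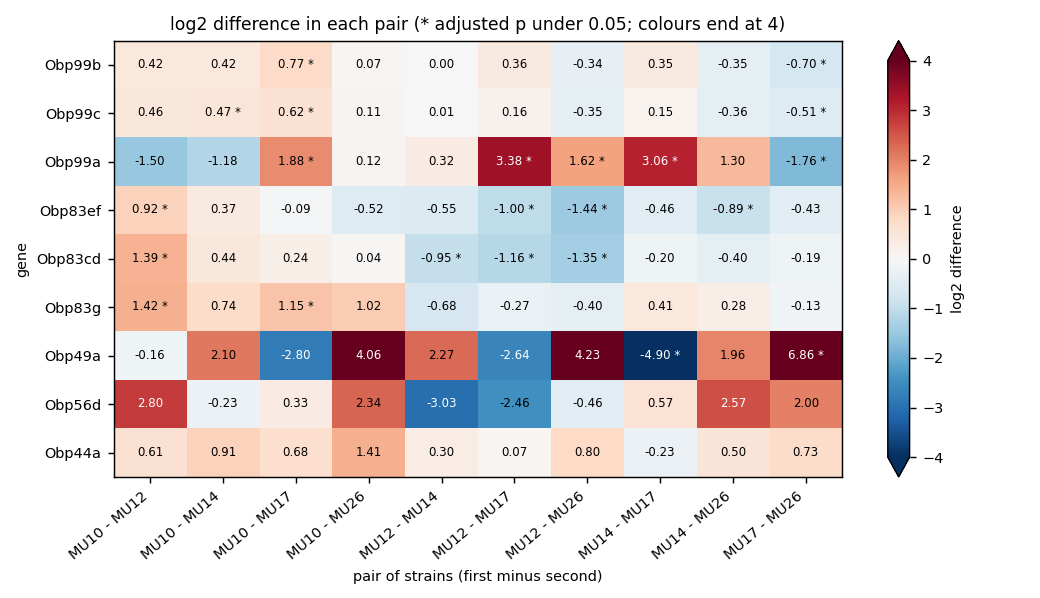
Fitted log2 difference (first strain minus second) of the 9 tested odorant-binding protein genes in each of the 10 pairs of strains, with asterisks where the adjusted p was under 0.05; colours end at 4. Of the 90 tests 22 are marked, 13 of them in pairs with MU17, and none for Obp56d or Obp44a.

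Of the 22 calls 5 were kept without any 1 library. These were Obp83cd and Obp83ef lower in MU12 than in MU26, Obp83cd lower in MU12 than in MU10, and Obp99a lower in MU17 than in MU12 and MU14. The other 17 were lost without at least 1 library. MU17 took part in 13 of the 22, or 59.1%, where it took part in 38.1% of the pair calls of all genes, and it was the lower strain in 9. MU12 took part in 10, or 45.5%, against 45.4% for all genes, and was the lower strain in 8. MU10 and MU26 took part in 8 each, or 36.4%, against 36.0% for all genes in MU10 and 6852 of 17112 calls in MU26, and MU14 in 5, or 22.7%, against 40.4%; none of these differences in share was tested. MU10 was the higher strain in all 8 of its calls and MU26 in 6 of 8. The low calls of MU12 all came from the Obp83 genes, and those of MU17 from the 3 Obp99 genes and Obp83g. In MU12 against MU14, where 26.5% of tested genes were called, Obp83cd was the only member called, and in MU14 against MU26, where 19.9% were, it was Obp83ef. In MU10 against MU14 (19.2%) it was Obp99c, and in MU14 against MU17 (16.6%) the called members were Obp99a and Obp49a. Both MU17 and MU26 had 3 calls against MU12 (21.0% and 25.1% of tested genes), in which Obp99a was higher in MU12 and Obp83cd and Obp83ef lower. In MU10 against MU17 (19.0% called in either direction) the 4 called members (Obp83g, Obp99a, Obp99b and Obp99c) were all higher in MU10, where 9.21% of tested genes were called in that direction. In MU17 against MU26 (20.9% in either direction) the 3 Obp99 genes were higher in MU26 (9.77% of tested genes) and Obp49a higher in MU17 (11.2%). No member was called between MU10 and MU26, where 15.5% of genes were; Obp49a had the largest difference there, 4.06 ± 1.34 on the log2 scale (SE, adjusted p = 0.078). A difference past the threshold in one pair and not in another does not show that the pairs differ, which was not tested.

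**Figure D5:**
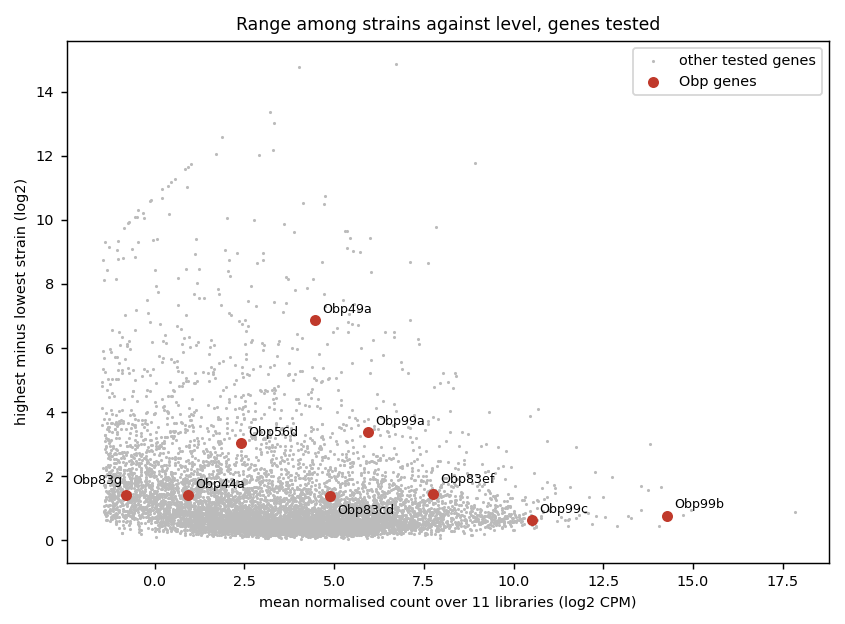
Difference between the highest and the lowest strain (log2) against mean level (log2 CPM) for the 8415 tested genes, with the 9 odorant-binding protein genes in red. Obp49a at 6.86, Obp99a at 3.38 and Obp56d at 3.03 lie above most genes, and the abundant Obp99b and Obp99c lie low, at 0.77 and 0.62.

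Among the 42 members below the filter, 6 had at least 15 counts in some library, and 4 of the 6 had their highest count in MU17 replicate 2. Obp19c had 71 counts there and 0 to 5 in every other library, and Obp56a had 32 there and 0 to 10 elsewhere. Obp19d, a member known from taste sensilla, had 35 against 0 to 8, and Obp22a, known as a seminal fluid protein, had 20 against 0 to 10. The other replicate of MU17 had 5, 5, 8 and 10 counts of these 4 genes. When all genes with a count were tested, Obp19c (adjusted p = 0.023) and Obp56a (0.026) passed across strains, while Obp19d (0.098) and Obp22a (0.054) did not.

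The same library held 13 members with at least 15 counts, against 7 to 10 in the others, and it had the lowest share of counts from the family. Its salivary gland markers summed to 146 CPM, against 52.1 in the other library of MU17 and 3.68 to 104 in the remaining libraries. The salivary gland gene Eig71Ee had 1575 counts there and 317 in MU17 replicate 1. All 7 of these markers differed across strains, where 48.3% of all tested genes did. Their part in the counts of the 4 genes was not tested. The 2 remaining genes had other maxima. Obp18a had 19 and 32 counts in MU10 and 4 to 12 elsewhere (adjusted p = 0.052 when all genes were tested), and Obp56g, known from the male ejaculatory bulb, had 17 counts at most, in MU17 replicate 1 (0.23). With another filter (filterByExpr) Obp18a was called across strains.

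The nearest non-members on either side of the 9 tested genes, passing over genes that overlap them, were 14 genes. Of these 6 were tested and 4 called, where 48.3% of all tested genes were called. CG15506, beside Obp99b, was highest in MU12 and lowest in MU10 (log2 range 2.31, adjusted p = 0.0076), whereas Obp99b was highest in MU10. CG7582, 3.46 kb from Obp99c and beyond the overlapping Gycalpha99B, was highest in MU10 like Obp99c but lowest in MU12 (1.88, adjusted p = 0.00034). CG8768, 0.35 kb from Obp49a, was highest in MU12 and lowest in MU17 (0.76, adjusted p = 0.012). Lpin, a lipid synthesis gene 1.67 kb from Obp44a, was highest in MU10 and lowest in MU17 (1.87, adjusted p = 0.0065). Gasp, the nearest gene to the Obp83 group at 7.25 kb, and Pbp49 were not called (0.81 and 0.19).

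Other carrier families were taken from the same fits, in which 48.3% of all tested genes were called across strains. Of 4 genes of the OS-D family of chemosensory proteins, 2 were tested and only Phk-3 was called. It had 8.58 ± 1.14 CPM in MU10 (SD, n = 2) and 3.06 ± 0.722 in MU14 (SD, n = 3). EbpIII had 8 to 30 counts and was not called (adjusted p = 0.18). Of 15 takeout-like carriers 3 were tested and 2 called, of which Jhbp5 had the higher level (mean 2.05 CPM) and Jhbp14 the wider range, 2.38 on the log2 scale between MU12 and MU17.

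All 5 tested of the 8 Niemann-Pick type 2 genes, sterol carriers, differed across strains, where 48.3% of all tested genes did. Npc2g (mean 425 CPM) and Npc2a (292 CPM) were the most abundant; Npc2g was highest in MU10 and lowest in MU26 by 2.00 on the log2 scale (adjusted p = 0.0037), Npc2a highest in MU12 and lowest in MU17 by 0.49 (0.032). Npc2b (log2 range 4.90, adjusted p = 0.020) had 380 counts in MU17 replicate 1, the library with the high Obp49a value, and 3 to 20 in all others. Npc2h ranged by 4.52 between MU10 and MU14 (adjusted p = 0.0029).

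Of the 8 genes of the CD36 family of lipid receptors, which includes the pheromone co-receptor Snmp1, 5 were tested and 4 called. Over all tested genes 48.3% were called. The most abundant, santa-maria (mean 869 CPM), was not called (adjusted p = 0.13), and dsb (188 CPM) was highest in MU26 and lowest in MU10 by 2.01 on the log2 scale (0.0019). The scavenger receptor crq ranged by 1.64 between MU14 and MU26 (0.00017). Of the 180 chemoreceptor genes, 9 were tested and 5 called (48.3% over all tested genes), and 28 had no count. Ir62a, the most abundant (mean 1.67 CPM), was not called (adjusted p = 0.21). Ir25a, a co-receptor, had 44 and 57 counts in MU17 and 0 in both libraries of MU26 (adjusted p = 0.0053), and the taste receptor gene Gr39a had 81 and 173 counts in MU17 against 9 to 23 elsewhere (0.00091). Ir68b (adjusted p = 0.029) had 136 counts in MU17 replicate 1, where Obp49a and Npc2b were also highest, and 0 to 7 in every other library.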

How the data were processed

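The deposited table held whole-number read counts per gene for 11 libraries. The authors made them from poly-A RNA by mapping paired reads to the FlyBase transcriptome with NextGenMap and dropping pairs with ambiguous placement among genes or transcripts, and deposited the counts without normalisation. Reads of all strains were mapped to the reference transcriptome, and sequence differences between strains were not examined. How the deposited gene length treats isoforms is not stated in the sources used here. Replicates are biological per the labels, and no pair of replicates agreed within counting noise.

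Genes were named through the BDGP6.54 annotation: 13843 by FlyBase identifier and 75 by CG number, and all 51 members by identifier. The 8415 genes that averaged 15 counts or more over the libraries were scaled by TMM and fitted in edgeR 4.0.16 (R 4.3.3) with 1 coefficient per strain. Quasi-likelihood tests were run across the 5 strains and in 10 pairs. They were adjusted by Benjamini-Hochberg over all tested genes (false discovery rate 0.05), within each pair and with no correction over the 10 pairs. SE and 95% intervals come from the same fit, and the intervals are not adjusted for multiple tests. For each member the pair given with an interval is that of the strains with the highest and lowest fitted level, chosen by those levels. CPM are scaled by TMM. A gene set a strain apart when called in the same direction in all 4 of its pairs. The procedure was tested on simulated data.

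The text names every tested member, gives untested members by genomic group and singly where a library had at least 15 counts, and names from each other list the 2 most abundant members and the 2 called members with the widest range. Untested members named for known roles were chosen after their values were seen. Members and lists were chosen with earlier results of these data known. Sequences of the genes are not used here. Alternatives were RLE and upper-quartile scaling, no filter, filterByExpr, DESeq2 1.42.0, limma-voom (limma 3.58.1), a replicate block, leaving out each library, and leaving out MU17.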

Additional observations from a re-analysis of the deposited data

How the results depend on the processing

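None of the 22 called pair differences changed sign under its 18 or 19 alternatives. The number of members called across strains (7 as reported) was 7 with RLE scaling and DESeq2 (where 48.5% and 59.6% of all tested genes were called), 6 with upper-quartile scaling (47.3%), 5 with limma-voom (46.0%), 5 to 7 with 1 library left out (37.2% to 47.6%) and 5 without the strain MU17 (41.7%). It was 8 of 48 without a filter, where 29.3% of all genes were called, and 8 of 11 with filterByExpr (46.2%). These counts do not always hold the same genes. Without a filter 6 of the 7 were kept and Obp19c and Obp56a were added. With filterByExpr all 7 were kept and Obp18a was added. Without MU10 replicate 1 or MU10 replicate 2, Obp56d was called in place of Obp83g, Obp99b and Obp99c. With the replicate number as a block 3 members were called (Obp83cd, Obp83ef and Obp99a), with 37.2% instead of 48.3% of all tested genes. Deviations of same-numbered libraries correlated between -0.30 and 0.27. In strains with 2 replicates the deviations mirror each other, so these correlations cannot decide whether the numbers pair the libraries. The reported fit has no block. The number of pair calls (22 as reported) was 12 of 54 without the strain MU17, which leaves 6 pairs; with 1 library left out it was 13 to 23, with 14 without MU10 replicate 2 and 13 without MU14 replicate 2 or MU14 replicate 3. Over all genes the pair calls were 17112 as reported and 11788 to 16359 with 1 library left out. The cause of the changes was not tested. Obp83cd and Obp83ef were called across strains under all 19 alternatives, and Obp99a under all but the one without MU17 (adjusted p = 0.067). Obp83g was lost under 12 and Obp99c under 7 of the 19. Obp99c was not called with upper-quartile scaling (0.067), which shifts the median of all genes by up to -0.15 on the log2 scale (MU10 minus MU14). Obp83g was not called without a filter (0.059) or with limma-voom (0.059). Depth limits the 42 members below the filter: none had more than 122 counts over the 11 libraries, and a lack of a call there does not show equal levels.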
